A study of Mus musculus with 6 samples.

Results

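Aminoacyl-tRNA synthetases were followed here by their mRNA in 427 cells, a mouse thymoma line (427.1.86), and in a derivative of it made for a knockdown of SPPL2b. The genes were taken by symbol from a list of 36, of which 20 encode the cytosolic enzymes and 16 the mitochondrial ones. Of these, 35 were found among the 25001 loci of the tables, 22601 of which carry a gene symbol; the locus of the remaining gene, Tars2, was not analysed here. All 35 were at 1 FPKM or more in every library.

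There were 6 libraries of poly(A)-selected RNA, 1 per condition, so no value has a replicate check. 427 cells with a stable empty pSUPER vector were deprived of serum for 2 h and given DMSO or 1 µM phorbol 12-myristate 13-acetate (PMA) for 2 h, PMA being a phorbol ester that activates protein kinase C. The SPPL2b knockdown cells, called SP2bKD, went through the same steps with DMSO or PMA. SP2bKD cells were also transfected with GFP alone or with GFP and Flag-tagged EICD, the intracellular domain of the membrane protease epithin/PRSS14 (gene St14), and the GFP-positive cells were sorted. All 6 libraries therefore came from the 427 line, and all 4 libraries without the empty vector carry the knockdown label. The labels name an siRNA against SPPL2b, whereas the study's methods describe a stable shRNA and, for the transfections, a single clone (SP2bKD-10). The labels give no DMSO or serum step for the transfected cells.

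The label of the knockdown was checked on its target, and the FPKM level in these libraries went against it. The paper itself tested its clones for SPPL2b mRNA by real-time PCR, normalized to GAPDH, and presents the lines used as knockdown lines. It reports that PMA-induced EICD generation decreased in those lines. It also reports less nuclear staining of epithin/PRSS14 and, after PMA, a largely reduced EICD band in the nuclear fraction. Sppl2b was at 9.90 FPKM in 427 cells with DMSO and at 6.86 with PMA. In the libraries labelled knockdown it was at 13.4 with DMSO, 9.37 with PMA, 11.4 with GFP and 13.2 with GFP and EICD. Within the same treatment Sppl2b mRNA was thus not lower in SP2bKD than in 427 cells, with DMSO or with PMA, and every direction given below for them is that of a library labelled knockdown. St14, whose locus shares sequence with the EICD construct, was at 69.6 to 105 FPKM in 5 libraries and at 614.5 in the library with EICD. The summed level of 8 epithelial markers was 6328 to 15032 FPKM, with Krt19 under 1 in every library. The summed level of 5 T cell markers was at most 0.282, with 3 of them listed at 0 in every library. Ptprc, used as a blood cell marker, reached at most 0.0496. Fibroblast markers (4 genes) summed to at most 0.501 and endothelial markers (2 genes) to at most 0.276.

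Each synthetase joins 1 amino acid to its tRNA, which is the step that fixes the genetic code in translation. Most amino acids have separate nuclear genes for the cytosolic and the mitochondrial enzyme, while Gars and Kars serve both compartments and Eprs encodes a fused enzyme for glutamate and proline. Several cytosolic enzymes sit in the multisynthetase complex on the scaffold proteins AIMP1, AIMP2 and EEF1E1. A subset of the cytosolic genes is widely described as transcribed by ATF4, the effector of the integrated stress response, which binds C/EBP-ATF sites (TGATGNAA) together with C/EBP proteins. Here 12 genes were put on that list (Aars, Cars, Eprs, Gars, Iars, Lars, Mars, Nars, Sars, Tars, Wars and Yars), leaving 8 other cytosolic genes (Dars, Farsa, Farsb, Hars, Kars, Qars, Rars and Vars).

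Promoter sequence from RefSeq (GRCm38.p6), from 250 bases before to 50 bases after each transcription start, was matched for 26 of the genes. The motif TGATGNAA, whose letters include the narrower TGATGCAA, was searched on both strands. It was in 1304 of 32851 promoters of all genes (3.97%), and TGATGCAA was in 294 (0.895%). Counted by gene, as for the lists below, TGATGNAA was in 1219 of 27025 (4.51%) and TGATGCAA in 279 (1.03%). Among the genes described as ATF4 targets, 5 of 8 with sequence held TGATGNAA (Aars, Gars, Iars, Tars and Yars) and 4 held TGATGCAA (all of those but Gars), while the motif was not in the windows of Eprs, Mars and Sars. It was in 0 of 5 windows of the other cytosolic genes and in 0 of 13 of the mitochondrial genes. The 140 bases from 120 before to 20 after the start are shown for the 5 genes with a match, because all but Tars of these were past 1.5-fold with EICD below, and for Sars and Kars, which hold none and had a high and a low ratio with EICD. Capitals mark TGATGNAA on either strand, and the windows are, in the order printed, chr8:111033722-111033861 (+), chr6:55037881-55038020 (+), chr13:49682010-49682149 (+), chr15:11399639-11399778 (−), chr4:129189783-129189922 (+), chr3:108445240-108445379 (−) and chr8:112011335-112011474 (−).
Aars: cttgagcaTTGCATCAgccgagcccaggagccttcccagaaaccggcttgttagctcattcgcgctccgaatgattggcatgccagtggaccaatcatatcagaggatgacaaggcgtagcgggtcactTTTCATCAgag
Gars: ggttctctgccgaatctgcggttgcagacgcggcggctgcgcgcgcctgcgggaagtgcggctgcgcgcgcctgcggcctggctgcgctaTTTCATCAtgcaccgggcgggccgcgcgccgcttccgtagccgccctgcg
Iars: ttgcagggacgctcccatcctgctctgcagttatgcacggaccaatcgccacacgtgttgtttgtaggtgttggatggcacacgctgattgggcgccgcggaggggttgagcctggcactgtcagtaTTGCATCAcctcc
Tars: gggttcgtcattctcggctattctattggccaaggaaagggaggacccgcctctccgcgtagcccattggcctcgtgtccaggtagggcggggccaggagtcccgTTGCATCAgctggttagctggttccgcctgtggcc
Yars: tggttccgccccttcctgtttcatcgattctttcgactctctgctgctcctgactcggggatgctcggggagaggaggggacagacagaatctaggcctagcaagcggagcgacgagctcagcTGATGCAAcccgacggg
Sars: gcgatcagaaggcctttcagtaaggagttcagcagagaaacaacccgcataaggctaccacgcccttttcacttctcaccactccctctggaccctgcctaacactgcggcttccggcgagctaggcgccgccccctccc
Kars: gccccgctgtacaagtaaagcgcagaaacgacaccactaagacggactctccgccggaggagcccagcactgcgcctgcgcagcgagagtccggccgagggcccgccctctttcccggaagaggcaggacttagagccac
Counting the start as base 1, the matches began 112 bases before it and at base 10 in Aars, 30 bases before it in Gars, 15 bases before it in Tars, at base 8 in Iars and at base 4 in Yars. In the first 4 of these genes the motif reads on the strand opposite to the gene. A match describes the letters only and does not show a bound site.

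In every library the cytosolic synthetase mRNAs were above the mitochondrial ones, with Lars2, the mitochondrial leucyl-tRNA synthetase, as the exception. FPKM is a level per kilobase of transcript and can be set side by side between genes of 1 library. The cytosolic median was 64.3 FPKM in 427 cells with DMSO, 66.7 with PMA, 80.5 and 81.7 in SP2bKD cells with DMSO and PMA, 76.1 with GFP and 100.04 with GFP and EICD. The mitochondrial median stayed between 8.20 and 10.3 FPKM. For comparison, the median of all loci at 1 FPKM or more was 18.3 to 19.7 in the 6 libraries.

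The highest cytosolic gene was Nars, for asparaginyl-tRNA, in both 427 libraries, Vars, for valyl-tRNA, in the DMSO and PMA libraries of SP2bKD, and Sars, for seryl-tRNA, in both transfected libraries. Nars was at 179.5 and 225.9 FPKM in 427 cells with DMSO and PMA, 140.2 and 163.9 in SP2bKD cells with DMSO and PMA, 120.3 with GFP and 203.8 with GFP and EICD. Vars was at 164.3, 169.0, 141.9, 173.3, 154.2 and 173.3 FPKM in the same order, the narrowest range of the highest genes. Sars was at 124.7, 153.2, 118.9, 146.0, 156.3 and 294.5 FPKM, so that its level with EICD stood above its other 5 levels. The lowest cytosolic gene changed from library to library among Wars, Yars and Cars, for tryptophanyl-, tyrosyl- and cysteinyl-tRNA. Wars was at 36.5, 39.9, 43.9, 43.6, 36.4 and 37.8 FPKM, a span narrower than that of Yars (36.2, 44.0, 42.2, 42.5, 49.1 and 85.7) and of Cars (36.5, 49.1, 38.4, 45.3, 44.4 and 84.7).

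Lars2 was at 413.2 and 673.0 FPKM in 427 cells with DMSO and PMA, 272.4 and 295.6 in SP2bKD cells with DMSO and PMA, 394.8 with GFP and 441.4 with GFP and EICD. It was the highest member in all 6 libraries. The next mitochondrial gene was Iars2, for isoleucyl-tRNA, in 5 libraries and Yars2 in 427 cells with PMA, at 26.2 to 37.7 FPKM. Mouse Lars2 is known to hold ribosomal RNA-like repeat sequence, and whether rRNA fragments were counted in its locus was not tested. The lowest mitochondrial genes were Ears2, for glutamyl-tRNA, in the 4 DMSO and PMA libraries, and Mars2, for methionyl-tRNA, in the 2 transfected libraries. Ears2 was at 3.57, 3.61, 3.99, 3.89, 3.77 and 4.08 FPKM, nearly level over the libraries. Mars2 was at 7.32 and 6.35 FPKM in 427 cells with DMSO and PMA, 4.66 and 5.30 in SP2bKD cells with DMSO and PMA, 2.92 with GFP and 3.19 with GFP and EICD.

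Where a mitochondrial gene shares its symbol stem with a cytosolic one, the cytosolic gene was the higher in 11 of the 12 pairs found. Its mean over the 6 libraries exceeded that of the mitochondrial gene by 2.21 times for Hars and Hars2 to 30.8 times for Nars and Nars2, with a median of 6.79. In the leucine pair the order was the opposite, Lars being at 0.131 of Lars2. Fars2, Ears2 and Pars2 were not paired, because their cytosolic counterparts have other symbols (Farsa and Farsb, and Eprs).

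**Figure D1:**
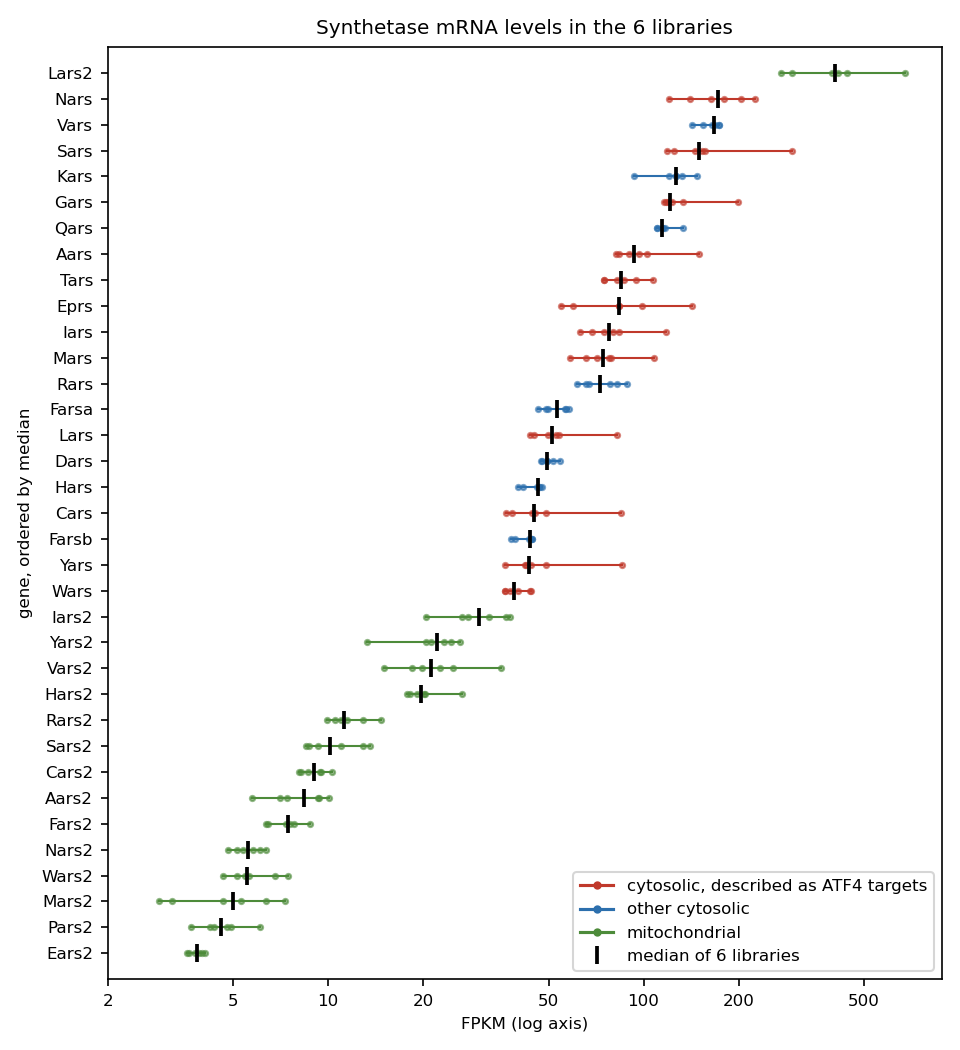
FPKM (horizontal log axis) of the 35 synthetase genes (vertical axis, ordered by median); points are the 6 libraries, lines their range and black ticks their median. Lars2 stands at 272.4 to 673.0 FPKM, the cytosolic genes lie above all other mitochondrial ones by median, and the range of Sars ends at 294.5 while that of Wars spans 36.4 to 43.9.

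EICD was compared with GFP alone to ask which mRNAs follow the liberated intracellular domain. Of the 12 cytosolic genes described as ATF4 targets, 8 were more than 1.5-fold higher in the EICD-transfected library, against 0 of the 8 others, where 10.4% of the 10687 loci tested were higher by that much. The 12 genes had a median log2 ratio of 0.755 and the 8 others one of -0.22, with 0.066 for all loci tested. No cytosolic gene was more than 1.5-fold lower, against 2.67% of loci. With libraries scaled to the same FPKM sum 5 genes were higher by 1.5-fold. The 12 genes were named from prior knowledge with these results known, and no test was made of the list.

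Cars had the highest ratio, 44.4 FPKM with GFP against 84.7 with EICD (log2 0.93), followed by Sars, 156.3 against 294.5 (0.91), and Aars, the alanyl-tRNA synthetase, 81.8 against 150.2 (0.88). The level per length of these 3 genes with EICD was 1.84 to 1.91 times that with GFP. Yars went from 49.1 to 85.7 FPKM (0.80), Iars, for isoleucyl-tRNA, from 68.4 to 118.1 (0.79) and Nars from 120.3 to 203.8 (0.76). Gars, which charges glycine in both compartments, went from 118.2 to 198.7 FPKM (0.75) and Lars, the cytosolic leucyl-tRNA synthetase, from 49.9 to 82.2 (0.72). These 8 were the genes past 1.5-fold. Just inside the threshold lay Eprs at log2 0.53 (98.6 to 142.2 FPKM), Tars, for threonyl-tRNA, at 0.52 (74.7 to 106.8) and Mars, for methionyl-tRNA, at 0.48 (77.6 to 108.3). Wars was the exception on the list, with 36.4 FPKM with GFP and 37.8 with EICD (0.05), and its ratio became -0.13 when each library was scaled to the same FPKM sum.

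The level with EICD was also set against the other 5 libraries. It was above all 5 for 10 of the 12 described ATF4 targets, the exceptions being Nars and Wars. Of the 8 other cytosolic genes it was so for 1, Farsb, by 44.3 against 44.2 FPKM. Of the 15 mitochondrial genes 7 were above all 5 and 3 below all 5. Over all loci at 1 FPKM or more in at least 1 library, 26.6% were above all 5 and 18.8% below. Sars exceeded the highest of its other 5 libraries 1.88-fold, Yars 1.74-fold, Cars 1.73-fold and Lars 1.52-fold. Nars did not, as its highest level, 225.9 FPKM, was in 427 cells with PMA. Summed over the 12 genes, the level was 954 to 1045 FPKM in the 5 other libraries and 1613 with EICD. Summed over the 8 other cytosolic genes it was 630.4 to 702.9 FPKM in the 5 other libraries and 623.2 with EICD, the lowest of the 6.

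**Figure D2:**
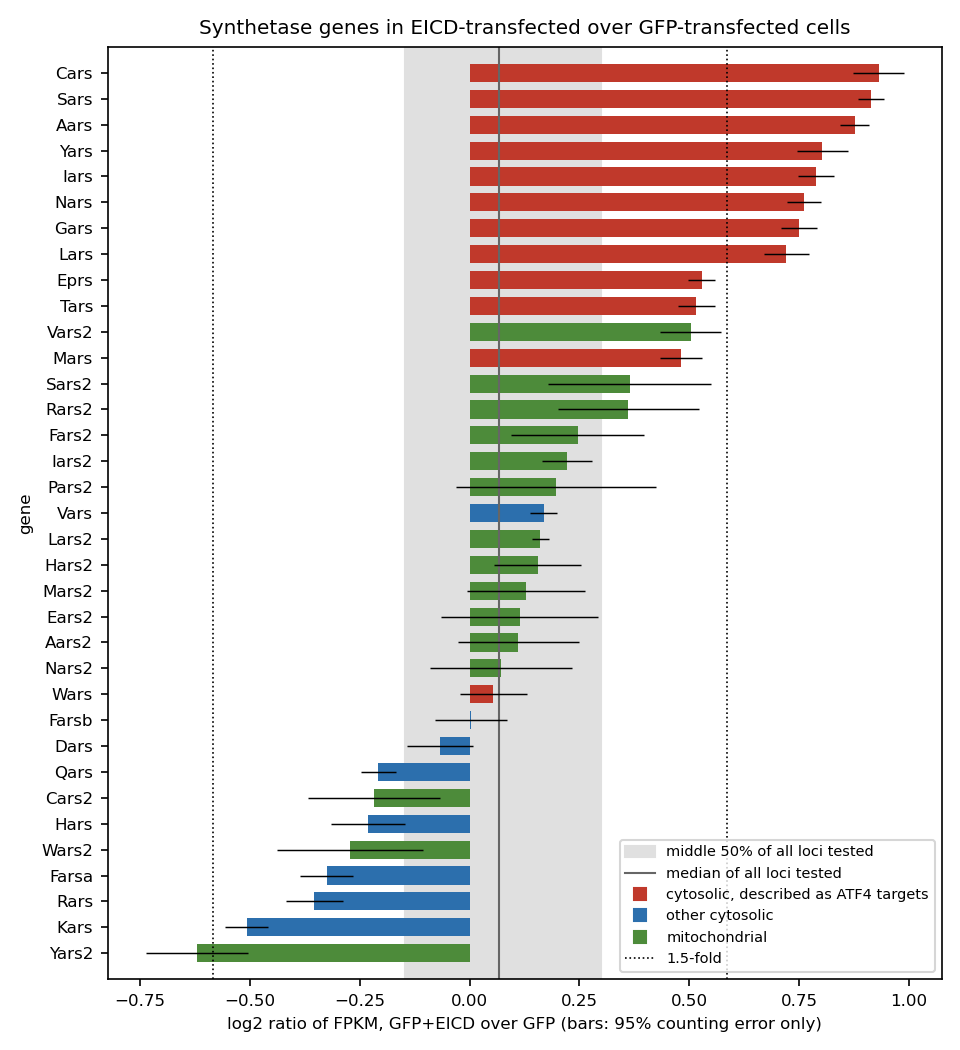
Log2 ratio of FPKM in EICD-transfected over GFP-transfected SP2bKD cells (horizontal axis) for the 35 genes (bars, sorted); whiskers are 95% intervals for counting error only, the grey band is the middle 50% of all loci tested and dotted lines mark 1.5-fold. The 8 genes past 1.5-fold on the right, from Lars at 0.72 to Cars at 0.93, are all described ATF4 targets. Kars at -0.51 and Yars2 at -0.62 are at the lower end. The mitochondrial genes lie mostly right of 0 (12 of 15, against 58.2% of loci). With libraries scaled to the same FPKM sum their median was -0.027 and that of all loci tested -0.12.

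The other cytosolic genes had ratios between -0.51 and 0.17. Kars, for lysyl-tRNA in both compartments, had the lowest, 132.6 FPKM with GFP and 93.3 with EICD (log2 -0.51). Rars, for arginyl-tRNA, followed with 78.5 and 61.4 FPKM (-0.35) and Farsa, the catalytic subunit for phenylalanyl-tRNA, with 58.0 and 46.3 (-0.33). Farsb, the other subunit of the same enzyme, was level at 44.2 and 44.3 FPKM. Hars was at -0.23, Qars, for glutaminyl-tRNA, at -0.21, Dars, for aspartyl-tRNA, at -0.07 and Vars at 0.17. The EICD level was below all 5 other libraries for Farsa, Hars, Kars and Rars, 4 of 8 genes, against 18.8% of loci.

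Enzymes of the multisynthetase complex lay on both sides of 0. Eprs, Iars, Lars and Mars, complex enzymes on the list, had ratios of 0.48 to 0.79 with a median of 0.625. Dars, Kars, Qars and Rars, complex enzymes off the list, had ratios of -0.51 to -0.07 with a median of -0.28. The 3 scaffold genes were all below 0, Aimp1 at -0.16, Aimp2 at -0.32 and Eef1e1 at -0.45. By catalytic class, the 10 class I genes had a median of 0.504 and the 10 class II genes one of 0.26. Eprs, which holds one part of each class, was counted as class I.

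The mitochondrial genes differed less between the transfected libraries. 12 of 15 had a ratio above 0, against 58.2% of loci, and their median was 0.155, beside 0.066 for all loci tested. Under scaling to the same FPKM sum their median was -0.027, and that of all loci tested moved to -0.12. None was more than 1.5-fold higher. Yars2, for mitochondrial tyrosyl-tRNA, was more than 1.5-fold lower, 20.5 FPKM with GFP and 13.3 with EICD (log2 -0.62), while the cytosolic Yars was among the higher genes. Its level with EICD was the lowest of its 6 libraries, the other 5 being at 20.5 to 26.2 FPKM. Vars2 was at 24.9 and 35.2 FPKM (0.50), just inside the threshold, and Sars2 and Rars2 were both at 0.36. Wars2 was at -0.27 and Cars2 at -0.22.

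Genes of the ATF4 pathway outside the synthetases were read beside these values. Of 12, 11 had a ratio above 0, 9 were more than 1.5-fold higher and none was more than 1.5-fold lower, where 10.4% of loci were higher, 2.67% were lower and 58.2% had a ratio above 0. Their median was 1.40, beside 0.066 for all loci tested. Trib3, a pseudokinase, went from 6.57 to 60.9 FPKM (log2 3.21), Chac1, a glutathione-degrading enzyme, from 15.2 to 113 (2.90) and Ddit3, the transcription factor CHOP, from 12.5 to 43.05 (1.79). Asns, the asparagine synthetase, went from 85.8 to 189.0 FPKM (1.14). Slc7a11 was at 2.38, Atf3 at 1.87, Ppp1r15a at 1.45, Sesn2 at 1.36 and Shmt2 at 0.66. Atf4 itself was at 139.6 and 186.9 FPKM (0.42), inside the threshold, and Phgdh at -0.07. Part of this list also differed between GFP-transfected and untransfected SP2bKD cells, Atf3 by a log2 ratio of 2.83, Ppp1r15a by 1.30 and Slc7a11 by 0.69. The part of transfection, of the St14 construct level and of ATF4 in the synthetase values was not tested.

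Other genes of tRNA charging and delivery, 21 found of 22, showed no member past 1.5-fold in either direction with EICD. 5 had ratios above 0 and 16 below, and their median was -0.11. Of all loci tested, 10.4% were higher and 2.67% lower by over 1.5-fold. A ratio above 0 was found for 58.2% of loci, and the median of all loci was 0.066. Xpot, the exporter of tRNA from the nucleus, was at 0.54 (65.9 to 96.0 FPKM), Dtd2, an editing deacylase, at 0.57 and Tarsl2, a second threonyl-tRNA synthetase gene, at 0.17. All 8 elongation factor genes found were below 0, from Eef2 at -0.05 to the mitochondrial Tufm at -0.58. Eef1d was not analysed here.

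PMA was compared with DMSO in 427 cells to ask which mRNAs follow a stimulus that sheds the ectodomain of epithin/PRSS14. The median log2 ratio of the 20 cytosolic genes was 0.168, with 13 above 0, but it turned to -0.082 with libraries scaled to the same FPKM sum, a setting that moved the median of all loci tested from -0.118 to -0.36. The 15 mitochondrial genes had a median of -0.29, with 12 below 0. Of all loci tested, 37.2% had a ratio above 0. No cytosolic gene passed 1.5-fold. Among mitochondrial genes 1 was higher, Lars2, where 8.1% of 10643 loci were, and 1 was lower, Vars2, where 14.4% of loci were.

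Lars2 went from 413.2 FPKM with DMSO to 673.0 with PMA (log2 0.70). The largest other positive ratios were those of Cars at 0.43 (36.5 to 49.1 FPKM), Nars at 0.33, Rars at 0.32 and Sars at 0.30. They are all cytosolic. Vars2, for mitochondrial valyl-tRNA, went from 22.7 to 15.0 FPKM (-0.60), a change that was inside the threshold when 1 FPKM was added to both libraries. Sars2 followed at -0.55 (13.6 to 9.29 FPKM), Wars2 at -0.41, Iars2 at -0.39 and Aars2 at -0.38, all mitochondrial.

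In SP2bKD cells no synthetase gene passed 1.5-fold with PMA. Of 10624 loci, 7.89% were higher and 16.5% lower by that much. The cytosolic median was 0.028, with 12 of 20 genes above 0, and the mitochondrial median -0.14, with 10 of 15 below 0, beside -0.149 for all loci tested. Of all loci tested, 35.6% had a ratio above 0. The largest positive ratios were those of Rars at 0.41 (67.0 to 88.9 FPKM), Sars at 0.30, Vars at 0.29, Cars at 0.24 and Nars at 0.23. The most negative were those of Sars2 at -0.58 (12.9 to 8.67 FPKM), just inside the threshold, Wars2 at -0.45, Aars2 at -0.41, Iars2 at -0.40 and Hars2, for mitochondrial histidyl-tRNA, at -0.39.

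The 2 PMA comparisons share no library, and 26 of the 35 genes had a ratio of the same sign in both. Negative ratios also prevailed among all loci tested, 6687 of 10643 for the 427 line and 6845 of 10624 for SP2bKD. How many of all loci shared their sign was not counted, so the 26 genes have no background to be read against. Across the 35 genes Pearson's r was 0.66 and Spearman's rho 0.691. By list, r was 0.70 for the 20 cytosolic genes, 15 of them with the same sign. For the 15 mitochondrial genes r was 0.48, with 11 of the same sign, and without Lars2 it was 0.43. The value over all 35 genes also takes in the offset between the lists, the cytosolic median being above the mitochondrial one in both comparisons. Genes are not independent replicates, the 2 PMA comparisons each rest on 1 library a side, and no p is given. Rars, Sars, Cars and Nars were among the 5 highest ratios in both cell lines, and Sars2, Wars2, Iars2 and Aars2 among the 5 lowest in both. Lars2 was apart, at 0.70 in 427 cells and 0.12 in SP2bKD cells. Vars2 was at -0.60 and 0.11. Among the other genes of tRNA charging and delivery, Eef1e1 was more than 1.5-fold higher with PMA in both lines, at 59.2 and 92.5 FPKM in 427 cells without and with PMA (0.65) and at 51.0 and 92.9 in the SP2bKD libraries (0.87). It was the only one of the 21 past the threshold in 427 cells. In SP2bKD cells 2 were more than 1.5-fold lower, Dtd2 at -0.79 and Eef1b2 at -0.72. Of all loci tested, 8.1% were higher and 14.4% lower by that much in 427 cells. In SP2bKD cells 7.89% of loci were higher and 16.5% lower.

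**Figure D3:**
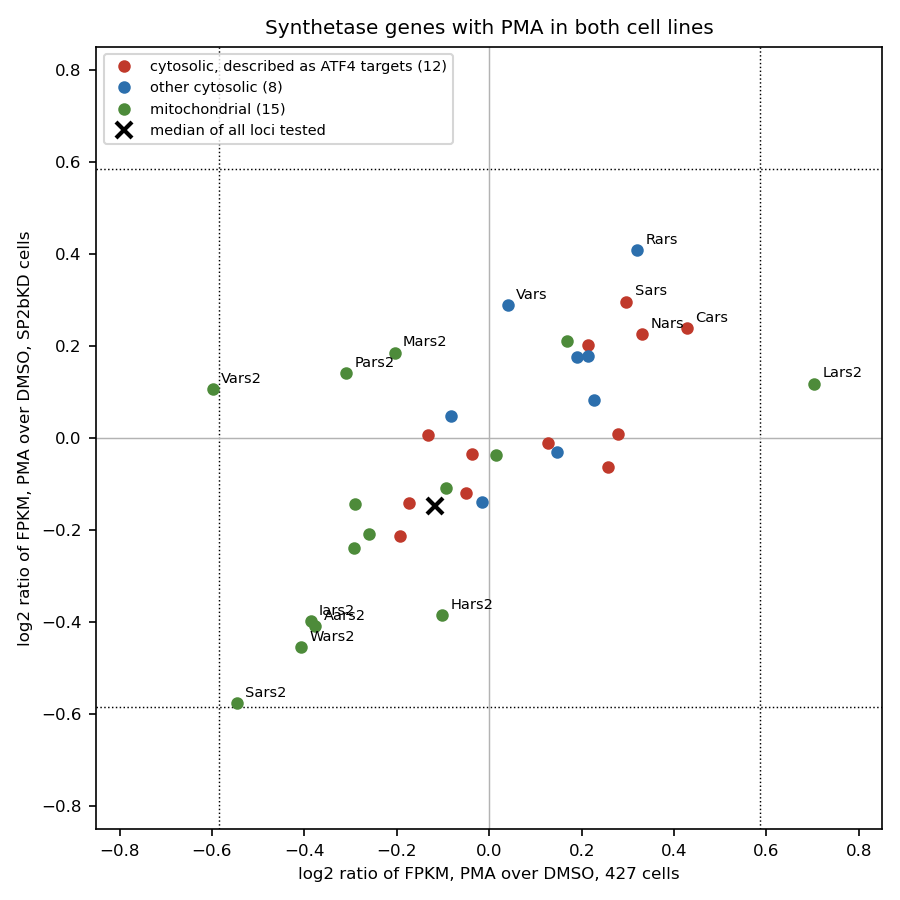
Log2 ratio of FPKM, PMA over DMSO, in 427 cells (horizontal axis) and in SP2bKD cells (vertical axis), 1 point per gene, with dotted lines at 1.5-fold and a cross at the median of all loci tested. The ratios have the same sign in both lines for 26 of 35 genes, and 9 of 15 mitochondrial genes lie at the lower left, with Yars2 (0.17 and 0.21) and Lars2 (0.70 and 0.12) on the right and Vars2 (-0.60 and 0.11), Pars2 and Mars2 at the upper left; with libraries scaled to the same FPKM sum the cytosolic median in 427 cells was -0.082 rather than 0.168.

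Libraries labelled SPPL2b knockdown were compared with 427 cells under DMSO and under PMA. These comparisons also hold the difference between the pSUPER control line and the derived line, which cannot be told apart from the knockdown. With DMSO no cytosolic gene and no mitochondrial gene was more than 1.5-fold higher, against 8.25% of 10706 loci. Lars2 and Mars2 were more than 1.5-fold lower, 2 of 15 mitochondrial genes, against 6.3% of loci. Lars2 was at 413.2 FPKM in 427 cells and 272.4 in SP2bKD cells (log2 -0.60), and Mars2 at 7.32 and 4.66 (-0.65). Pars2, for mitochondrial prolyl-tRNA, was at -0.49, Nars at -0.36 and Vars2 at -0.30. The largest positive ratios were those of Eprs at 0.48 (59.9 to 83.4 FPKM), Hars2 at 0.47, Iars2 at 0.46, Iars at 0.41 and Aars2 at 0.33. The cytosolic median was 0.054 and the mitochondrial one -0.070, beside 0.046 for all loci tested. With libraries scaled to the same FPKM sum the median of all loci moved to 1.01 with DMSO and to 1.26 with PMA, and no mitochondrial gene was then lower in either comparison. Eef1b2, an elongation factor subunit, was the 1 gene of the 21 of the wider pathway past 1.5-fold, at 1.04. It was at 711.1 FPKM in the SP2bKD library with DMSO and at 346.2 to 513.2 in all others. That DMSO library also enters its ratio of -0.72 with PMA in SP2bKD cells.

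With PMA in both lines, Eprs was more than 1.5-fold higher in the library labelled knockdown, 54.6 against 83.8 FPKM (log2 0.62), where 6.22% of 10518 loci were. Lars2 was lower, 673.0 against 295.6 FPKM (-1.19), which was the largest log2 ratio in size of any synthetase gene in the 6 comparisons; 6.22% of loci were lower by 1.5-fold or more. Next among the negative ratios were Nars at -0.46, Lars at -0.27, Mars2 at -0.26 and Kars at -0.22, and among the positive ones Iars2 at 0.45, Vars2 at 0.40, Aars2 at 0.30 and Mars at 0.29. The medians were 0.031 for the cytosolic and 0.017 for the mitochondrial genes, beside 0.024 for all loci tested. With PMA 0 of the 21 other pathway genes passed the threshold. The DMSO and PMA comparisons rest on separate libraries. All 4 libraries labelled knockdown were above both 427 libraries for 6 of the 35 genes (Dars, Eprs, Mars, Ears2, Iars2 and Nars2), against 10.6% of 11062 loci, and below both for Mars2 and Pars2, against 8.98% of loci. Eprs was at 54.6 and 59.9 FPKM in the 427 libraries and at 83.4 to 142.2 in the others. Lars2 was at 413.2 and 673.0 in the 427 libraries and at 272.4 to 441.4 in the libraries labelled knockdown, which overlap.

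GFP-transfected and sorted SP2bKD cells were compared with SP2bKD cells given DMSO, which gives the background of transfection and sorting against which EICD was read. The labels give the serum and DMSO steps only for the latter, and these cannot be told apart from transfection. No cytosolic gene passed 1.5-fold. Of 15 mitochondrial genes, 2 were more than 1.5-fold lower, against 12.0% of 10687 loci, and none was higher, against 8.01%. These were Mars2, 4.66 FPKM with DMSO and 2.92 with GFP (log2 -0.67), and Sars2, 12.9 and 8.53 (-0.60). Hars2 was at -0.55, Wars2 at -0.42 and Iars at -0.29. The largest positive ratios were those of Lars2 at 0.54 (272.4 to 394.8 FPKM), Vars2 at 0.43, Sars at 0.39, Qars at 0.27 and Eprs at 0.24. The cytosolic median was 0.131 and the mitochondrial one -0.046, beside -0.079 for all loci tested. Gatb, a subunit of the mitochondrial amidotransferase that makes glutaminyl-tRNA, was the 1 gene of the 21 past the threshold, at -0.94. The EICD and GFP comparisons share the GFP library, whose level enters the ratios of both.

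**Figure D4:**
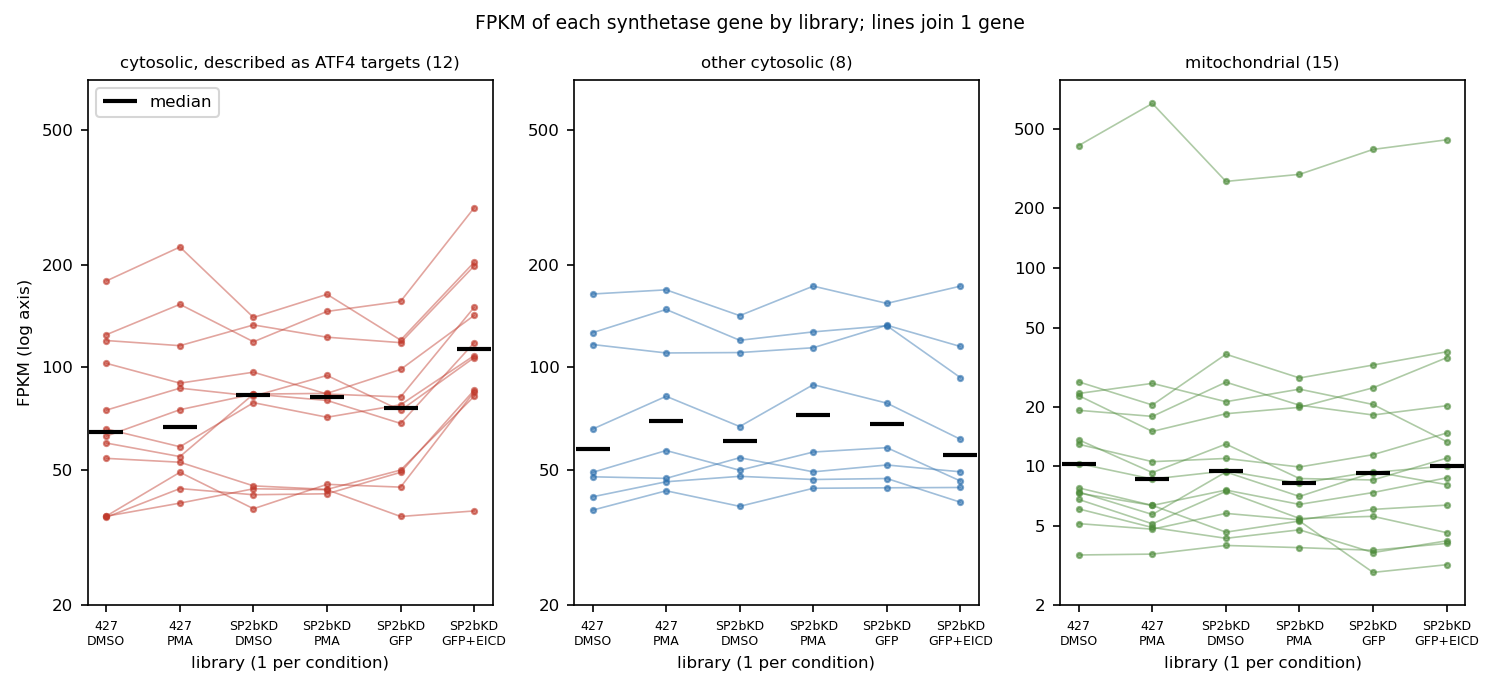
FPKM (vertical log axis) in the 6 libraries (horizontal axis, 1 per condition) for the 12 cytosolic genes described as ATF4 targets, the 8 other cytosolic genes and the 15 mitochondrial genes; thin lines join 1 gene and black bars are medians. In the left panel the level with EICD is above the other 5 libraries for 10 of 12 genes, in the middle panel for 1 of 8 and in the right panel for 7 of 15. Lars2 runs apart in the right panel at 272.4 to 673.0 FPKM.

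Over the 6 comparisons 21 of the 35 genes passed 1.5-fold in none, 12 in 1, and 2 in more than 1, Lars2 in 3 and Mars2 in 2. Of 11062 loci at 1 FPKM or more in at least 1 library, 47.1% passed in at least 1 comparison and 30.4% in more than 1. Since fewer cells of a type and less RNA per cell cannot be told apart in bulk RNA, none of these values separates them. Sequencing depth was estimated from the lowest values of FPKM times length, kept inside a fixed window, as 25300000 to 29000000 fragments per library. The window bounds the depths that could come out, so the depth is a rough figure. At this depth any cytosolic gene had at least 2049 fragments and any mitochondrial gene at least 283 in any library. The resulting counting error of a log2 ratio was at most 0.045 for cytosolic and 0.116 for mitochondrial genes; it covers counting only and not the spread between cultures, which these data do not give.

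The gene models behind the values differ from the annotation. 31 of the 35 loci include newly assembled isoforms, and only Hars, Kars, Cars2 and Mars2 were quantified on annotated isoforms alone. The locus of Aars (ENSMUSG00000031960, chr8:111029562-111057664, GRCm38) begins 3582 bases before the annotated gene and covers 2190 bases of Ddx19b on the opposite strand, whose ratio with EICD was 0.34 against 0.88 for Aars. It also covers 1326 bases of Exosc6 on the same strand, of which no value was analysed here, so that fragments of Exosc6 cannot be told apart from those of Aars. Mars, at 0.48 with EICD, shares 68 bases with Ddit3 on the opposite strand, which was at 1.79. Yars shares 436 bases with C77080 on the opposite strand, whose ratio with EICD was 0.15 against 0.80 for Yars. Iars2 shares 2034 bases with Rab3gap2 on the opposite strand. With PMA Rab3gap2 was at -0.32 in 427 cells and -0.45 in SP2bKD cells, against -0.39 and -0.40 for Iars2. For the knockdown Rab3gap2 was at 0.57 with DMSO and 0.44 with PMA, against 0.46 and 0.45. With GFP it was at 0.0066 against -0.18, and with EICD at 0.42 against 0.22. In all 11 of the 35 loci overlap another protein-coding gene, and the use of strand in counting is not given in the sources used here. The part of these overlaps in the values was not tested.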

How the data were processed

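RNA was sequenced as 100-base paired-end reads from 6 libraries, 1 per condition. The authors aligned reads to GRCm38 with TopHat2 2.1.1, and assembled and quantified loci with Cufflinks 2.1.1 and Cuffdiff 2.1.1; the submitters' processing notes also name STAR 2.4.0b. The values deposited are FPKM, fragments per kilobase of transcript per 1000000 mapped fragments, 1 per locus and library, so a value depends on the assembled gene model and on the library's total. No replicate was pooled, and 0 columns of sample values were left unused.

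Groups were taken from the sample labels. Genes were matched by symbol, and where a symbol had more than 1 row (Vars) the row with the highest mean FPKM was used. The genes, the lists and the comparisons were chosen with earlier results of these data known, and a gene of the wider pathway list is not reported here. For each of 6 comparisons the log2 ratio was taken after adding 0.01 FPKM to both libraries. A locus was counted when past 1.5-fold, and the background was every locus with a symbol that reached 1 FPKM on either side of the comparison. With 1 library a side no p-value was computed and a difference compares those libraries, not the conditions. The text names every synthetase gene past 1.5-fold, the 5 largest positive and 5 most negative ratios where fewer passed, and gives all 6 values for genes past the threshold in more than 1 comparison and for the highest and lowest of each list. Counting errors came from fragments estimated by the lowest FPKM values of annotated loci of over 2500 bases. Only values of FPKM times length inside a fixed window were used, which bounds the depth. The errors hold only as far as that estimate. Promoters were RefSeq sequence (GRCm38.p6), and coordinates of loci are those of the tables. Alternatives were other added amounts, minima of 0 and 10 FPKM, scaling by upper quartile, by the median ratio of loci, by an FPKM sum of 1000000 and, chosen after seeing the data, by the FPKM sum of annotated loci, a 2-fold threshold, annotated gene models only, and summed rows. Calculations used Python 3.11.15, NumPy 2.4.6, pandas 2.3.3 and matplotlib 3.10.9. Only the log2 ratio and the 1.5-fold count were tested on simulated data, which held counting error and no spread between cultures.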

Additional observations from a re-analysis of the deposited data

Results flagged for a closer look

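For 3 mitochondrial synthetase genes the ratio of PMA to DMSO had opposite signs in 427 cells and in the SP2bKD libraries, by at least 0.1 on the log2 scale in each. Vars2 was at -0.60 in 427 cells and 0.11 in SP2bKD cells. Pars2 was at -0.31 and 0.14, and Mars2 at -0.20 and 0.19. Each cell line has 1 library with PMA and 1 with DMSO, so the difference between the lines was not tested. Pars2 and Mars2 are low genes, at 3.67 to 6.09 and 2.92 to 7.32 FPKM over the 6 libraries.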

How the results depend on the processing

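Of 350 values recomputed under the alternatives, 294 stayed near the reported value, 52 moved and 4, all medians over 0.1 in size, moved and turned sign. Counting medians nearer to 0 as well, 9 turned sign, among them, with centring, the mitochondrial medians with GFP (-0.046 to 0.030) and for the knockdown with PMA (0.017 to -0.0046); unless a value below shows it, the cause was not tested. Scaling to an FPKM sum of 1000000 moved the most, since 85.6% to 94.2% of each sum lies in 10 loci, and it shifted the median of all loci to -0.36 for PMA in 427 cells, 1.01 and 1.26 for the libraries labelled knockdown with DMSO and with PMA, and -0.12 for EICD. Under it the cytosolic median was -0.082 with PMA in 427 cells, 1.02 and 1.28 for the knockdown with DMSO and PMA (20 genes higher in each) and 0.32 with EICD (5 higher, 1 lower). The mitochondrial median under it was -0.53 with PMA in 427 cells (0 higher, 5 lower), 0.89 and 1.25 for the knockdown with DMSO and PMA (12 and 14 higher, 0 lower), and -0.027 with EICD, and 1 gene was lower with GFP.

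Centring on the median ratio of loci gave cytosolic medians of 0.27 and 0.17 with PMA in 427 and SP2bKD cells, mitochondrial medians of -0.18 and -0.0019, no mitochondrial gene lower with PMA in 427 cells (0), and 1 higher and 1 lower with GFP. Annotated gene models alone left 2 cytosolic and 2 mitochondrial genes, so these values rest on 4 genes. Their medians were -0.37 and -0.044 with EICD, -0.098 and -0.17 for the knockdown with PMA, and, for the mitochondrial pair, -0.012 with PMA in SP2bKD cells, -0.39 for the knockdown with DMSO and -0.34 with GFP, and 0 genes passed 1.5-fold apart from 1 lower in each of the last 2. At 2-fold, 0 genes passed in any of the changed counts, the 8 cytosolic genes with EICD among them; only Lars2 in the knockdown with PMA passed it. Among mitochondrial genes lower, adding 1 FPKM left 0 with PMA in 427 cells, 1 in the knockdown with DMSO and 0 with GFP, a minimum of 10 FPKM left 1 in the knockdown with DMSO and 1 with GFP, and upper quartile scaling left 1 with GFP. Scaling by annotated loci gave 2 with PMA in 427 cells and 0 with EICD. The amount and form of addition used in the study's methods and no minimum moved no count here by over 1.5 times. No paired analysis was possible because each condition has 1 library. No replicate was there to leave out. Mitochondrial genes at a few FPKM carry the largest counting error, up to 0.116 in a log2 ratio.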
